A study of Mus musculus with 21 samples.

Results

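Genes that write or erase histone methylation, remove histone acetylation or remodel nucleosomes were examined as a set of 40 genes, taken by gene symbol from the 55573 genes of the deposited expression tables. RNA had been measured in 21 libraries of E0771, a mouse breast cancer cell line, here in a form that carries GFP (E0771GFP), with 3 libraries in each of 7 groups. The groups were the untreated parental line; the line with an empty vector; a line overexpressing ZBTB18, a zinc finger repressor of transcription; that line with a doxycycline-inducible TGFBR2, the ligand-binding receptor subunit for TGF-β, given doxycycline (1 mg/mL as labelled) with either vehicle or TGF-β1 (2 ng/mL); and M11GFP and M12GFP, a pair of lines derived from spontaneous lung metastases (M11 and M12). Every group shares the E0771GFP origin. Each construct is represented by 1 labelled line, so a difference between lines and an effect of the construct cannot be told apart. Doxycycline is labelled for the receptor groups only. Where these are compared with other groups, the drug, the receptor and the line cannot be told apart either. The labels do not say whether replicates were separate cultures, so p-values measure only the spread between these libraries. The design text asks how gene expression differs between ZBTB18-overexpressing and control cells.

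Histone tails are modified by enzymes that act as opposing sets. Lysine methyltransferases place methyl groups that mark active genes (on H3K4, H3K36 and H3K79) or silent ones (on H3K9 and H3K27), and lysine demethylases take them away. Deacetylases remove acetyl groups, usually as parts of repressor complexes, and ATP-driven remodellers such as SWI/SNF and NuRD slide or evict nucleosomes. Several of these enzymes come as paralogues that share a catalytic domain, among them NSD1, NSD2 and NSD3, EZH1 and EZH2, and SMARCA2 and SMARCA4, and mutations of many of them recur in cancers.

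Libraries held 24208564 to 90518866 counts, and 39 of the 40 genes passed the filter on low counts; Hdac9, a class IIa deacetylase, had 0 to 5 reads per group and was not tested. Levels are given as CPM, read counts relative to the scaled library size, and as TPM where genes are compared with each other, since TPM also corrects for transcript length. Fold changes are log2 values for the first group named minus the second, from edgeR's quasi-likelihood test with Benjamini-Hochberg adjustment over all 15432 genes tested, and a change was called at an adjusted p under 0.05. Zbtb18 averaged 113 CPM in the ZBTB18 line, 25.1 with empty vector and 29.5 in the parental line, and Tgfbr2 588 and 604 CPM in the receptor groups against at most 26.6 elsewhere. Mitochondrial genes held 1.8 to 3.42% of reads in the parental and metastasis lines and 0.525 to 1.09% in all others, and parental replicate 1 carried 14.0% of its counts on the ribosomal RNA-like gene Gm42418. Of 4 epithelial markers, Krt8 was high in every group (154 to 342 CPM on average). Epcam averaged 0.222 CPM in the parental line and 1.72 to 3.22 CPM in the other groups, and Cdh1 at most 0.0934 CPM. Krt18 averaged 3.01 CPM in M12 and at most 0.334 CPM elsewhere. Of 4 fibroblast markers only Pdgfra exceeded 1 CPM, and lung epithelial markers summed to at most 0.137 CPM in any library. The 7 blood cell markers summed to 19.8 to 70.1 CPM in M12, nearly all of it Cd68, with Cd3e at 0, and to at most 16.6 CPM elsewhere. The 3 endothelial markers summed to 3.54 to 3.99 CPM in M11 and at most 1.9 CPM elsewhere; the part of these differences in the results was not tested. In bulk RNA, fewer cells expressing a gene and less RNA per cell cannot be told apart.

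Against empty vector, 7 of the 39 tested genes rose and 9 fell with ZBTB18, a share of 41%; of all genes tested 28.4% were called, 14% up and 14.5% down. Those with a fold of 2 or more were Nsd1 and Smarca2, which fell, and Kdm5b, which rose, 3 of 39 where 8.06% of all genes changed so far. The count was 9 without ZBTB18 replicate 2, 10 without empty vector replicate 2 and 12 or 13 without any other of these 6 libraries. All genes called fell as well, from 4388 to 3328 without ZBTB18 replicate 2 and to at most 3764 without any other library. Of the 16 calls, 8 held under every alternative run that tested them. Smarca2, 1 of these 8, was not tested under a filter of at least 1 CPM in 3 libraries. Against the parental line the ZBTB18 line had 20 higher and 5 lower (64.1%), where 61.7% of all genes were called, 29.9% higher and 31.8% lower. The empty vector line itself had 19 higher and 1 lower (51.3%), where 58% of all genes were called, 28.9% higher and 29% lower. The 2 comparisons share the parental libraries, and the share called was near the background in both. Among the 19 genes higher with empty vector were Setd2, Kmt2a, Arid1a, Arid1b, Smarca4 and Chd4, with log2 fold changes from 0.50 to 0.93. Since 20 of 39 genes differed between the references, a change called against 1 of them need not be one against the other.

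The receptor line with vehicle differed from the ZBTB18 line in 10 higher and 8 lower genes (46.2%), where 38.8% of all genes were called, 19.5% higher and 19.3% lower. It differed from empty vector in 8 higher and 12 lower genes (51.3%), where 51.5% of all were called, 25.6% higher and 25.9% lower. With TGF-β1, 1 of 39 genes was called in that line, Kdm1a, which rose (2.56%, where 1.91% of all genes were called, 1.26% higher and 0.654% lower). That count depended on the fit: 3 were called without the filter on low counts, and 4 with the 6 libraries of the comparison alone. M11 had 13 higher and 4 lower genes than the parental line (43.6%, where 40.7% of all were called, 20.8% higher and 20% lower). That count fell to 10 without parental replicate 1 and to 11 without parental replicate 2. Without parental replicate 2 all genes called fell as well, from 6288 to 5067. M12 had 8 higher and 8 lower (41%, where 50.1% of all were called, 24.9% higher and 25.2% lower). M11 and M12 differed from each other in 15 higher and 6 lower genes (53.8%, where 35.5% of all were called, 17.7% higher and 17.8% lower). In the heat map of all tested genes the rows of Nsd1 and Kdm5b are shifted in 5 of the 7 groups, those other than the parental and empty vector lines.

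**Figure D1:**
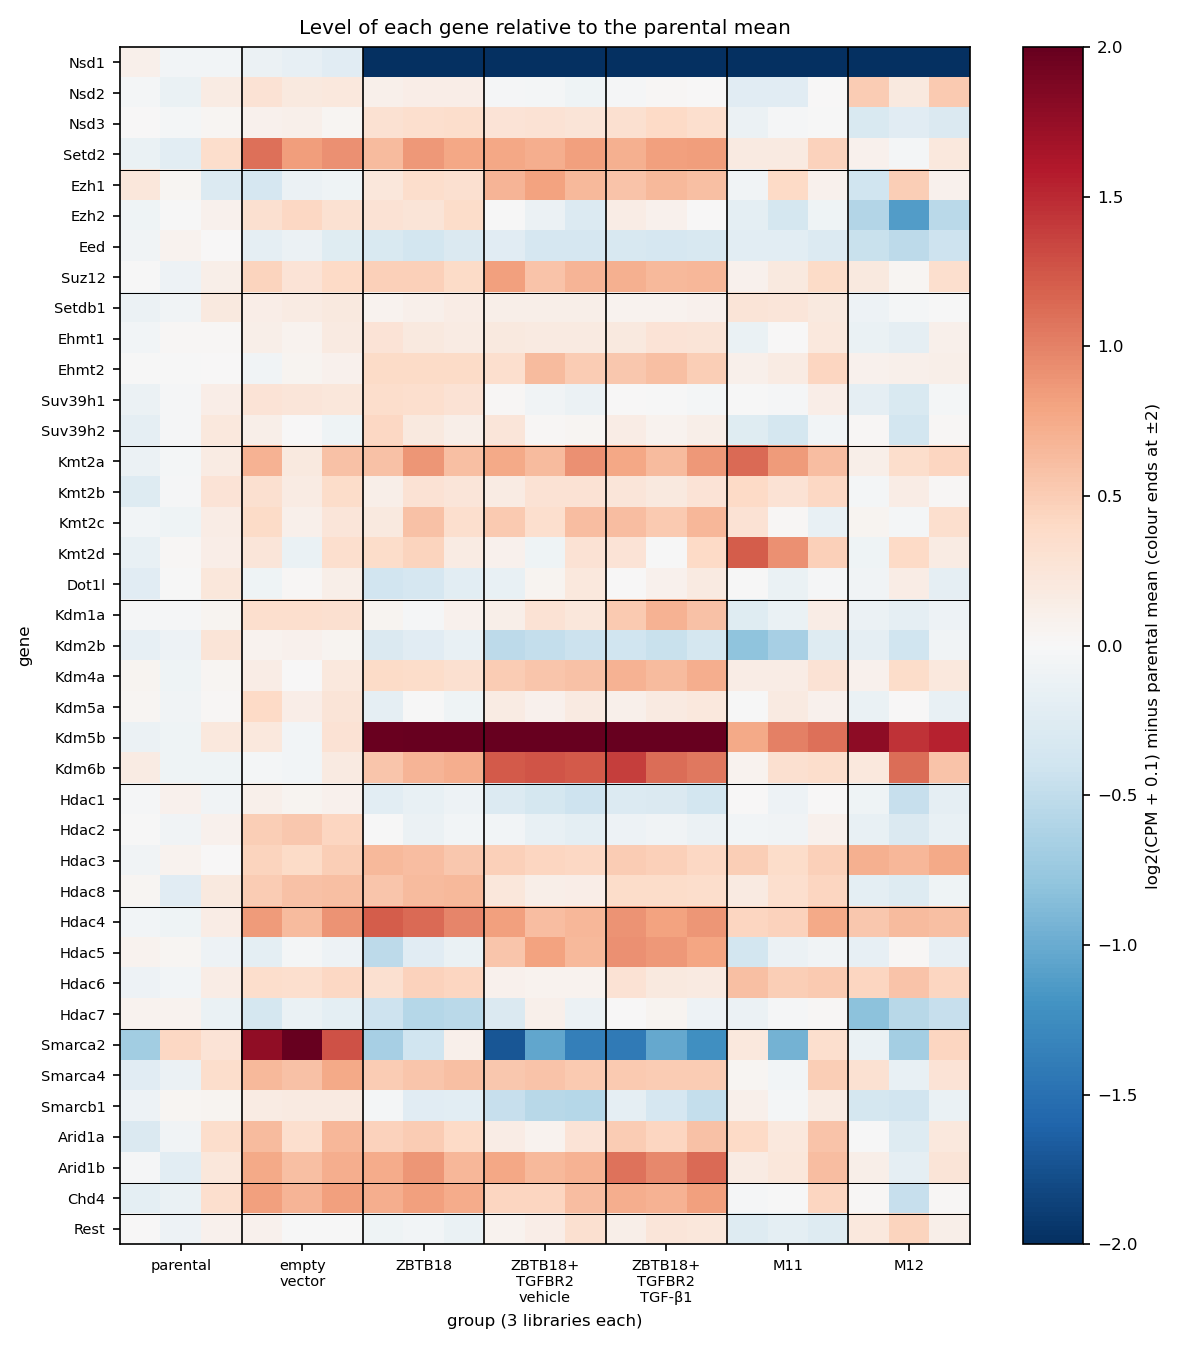
Level of the 39 tested genes (rows, grouped by role) in each of the 21 libraries (columns, 3 per group), as log2(CPM + 0.1) minus the mean of the parental libraries; colours end at a difference of 2. Nsd1 is low and Kdm5b high in the ZBTB18, receptor, M11 and M12 libraries, Smarca2 stands out in the empty vector libraries, and most other rows stay pale.

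Nsd1 (chromosome 13, 55209782 to 55318325, build mm10) encodes a methyltransferase that places the first methyl groups on H3K36. The parental libraries held 13.3, 11.8 and 11.9 CPM and the empty vector libraries 11.4, 11 and 10.5 CPM. With ZBTB18 it stood at 0.232, 0.208 and 0.547 CPM. In the receptor line the reads nearly ended: 5 reads over the 3 vehicle libraries and 2 over the 3 TGF-β1 libraries, against 1707 over the empty vector libraries. M11 held 2.05, 2.35 and 3.01 CPM and M12 0.475, 0.0859 and 0.221 CPM. All 15 libraries of the ZBTB18, receptor and metastasis groups lay below all 6 parental and empty vector libraries, and the difference between the reference lines was not called (−0.17, adjusted p = 0.6).

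The fall of Nsd1 with ZBTB18 was 32.7-fold against empty vector (−5.03 in log2, SE 0.35, adjusted p = 7.65e-10) and −5.20 against the parental line. The receptor line with vehicle had 415 times fewer Nsd1 reads than empty vector per scaled library (exact 95% interval 177 to 1279, counting error only) and 12.6 times fewer than the ZBTB18 line (5.06 to 40.4); both differences passed the test. The 2 and 5 reads in the receptor groups are too few to compare TGF-β1 with vehicle. Against the parental line, Nsd1 was lower in M11 by −2.33 (SE 0.29, adjusted p = 1.9e-06) and in M12 by −5.64 (SE 0.38, adjusted p = 1.3e-10). M11 stood above M12 by 3.31 (SE 0.39, adjusted p = 1.43e-06). Each of these calls held when any 1 library was left out. The order of the group means, from high to low, was parental, empty vector, M11, ZBTB18, M12 and then the receptor groups; the ranges of the ZBTB18 and M12 libraries overlapped, and so did those of the vehicle and TGF-β1 libraries.

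The paralogues of Nsd1 showed no change of that size. Nsd2, which dimethylates H3K36, and Nsd3, a further member of the family, were far more abundant in every group: in the parental line Nsd1 stood at 1.26 ± 0.18 TPM (SD, n = 3), Nsd2 at 74.2 and Nsd3 at 20.5. Of the summed TPM of the 3 genes, Nsd1 made up 1.33% in the parental line, 0.974% with empty vector, 0.0573% with ZBTB18, 0.277% in M11 and 0.0391% in M12. It was 0.00279% in the receptor line with vehicle and listed at 0 TPM in all 3 TGF-β1 libraries. Nsd2 held 71.8 to 85.3% of the sum in all groups. As a ratio within a library, log2 of Nsd1 to the mean of Nsd2 and Nsd3 (0.1 TPM added to both) was −3.07 lower with ZBTB18 than with empty vector, −1.94 lower in M11 than in the parental line and −3.73 lower in M12 than in the parental line. The libraries of the groups compared did not overlap, and the two-sided exact permutation test gave p = 0.1 each time, the smallest that 3 against 3 allows. Between the references the same ratio differed by −0.46 with empty vector (exact permutation p = 0.1), although the level of Nsd1 itself was not called. The 0.1 TPM added limits how low the ratio can go, which bounds the size of these differences. It averaged −8.64 with ZBTB18 and −8.84 in M12, where vehicle replicate 1, with Nsd1 listed at 0 TPM, read −9.26.

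**Figure D2:**
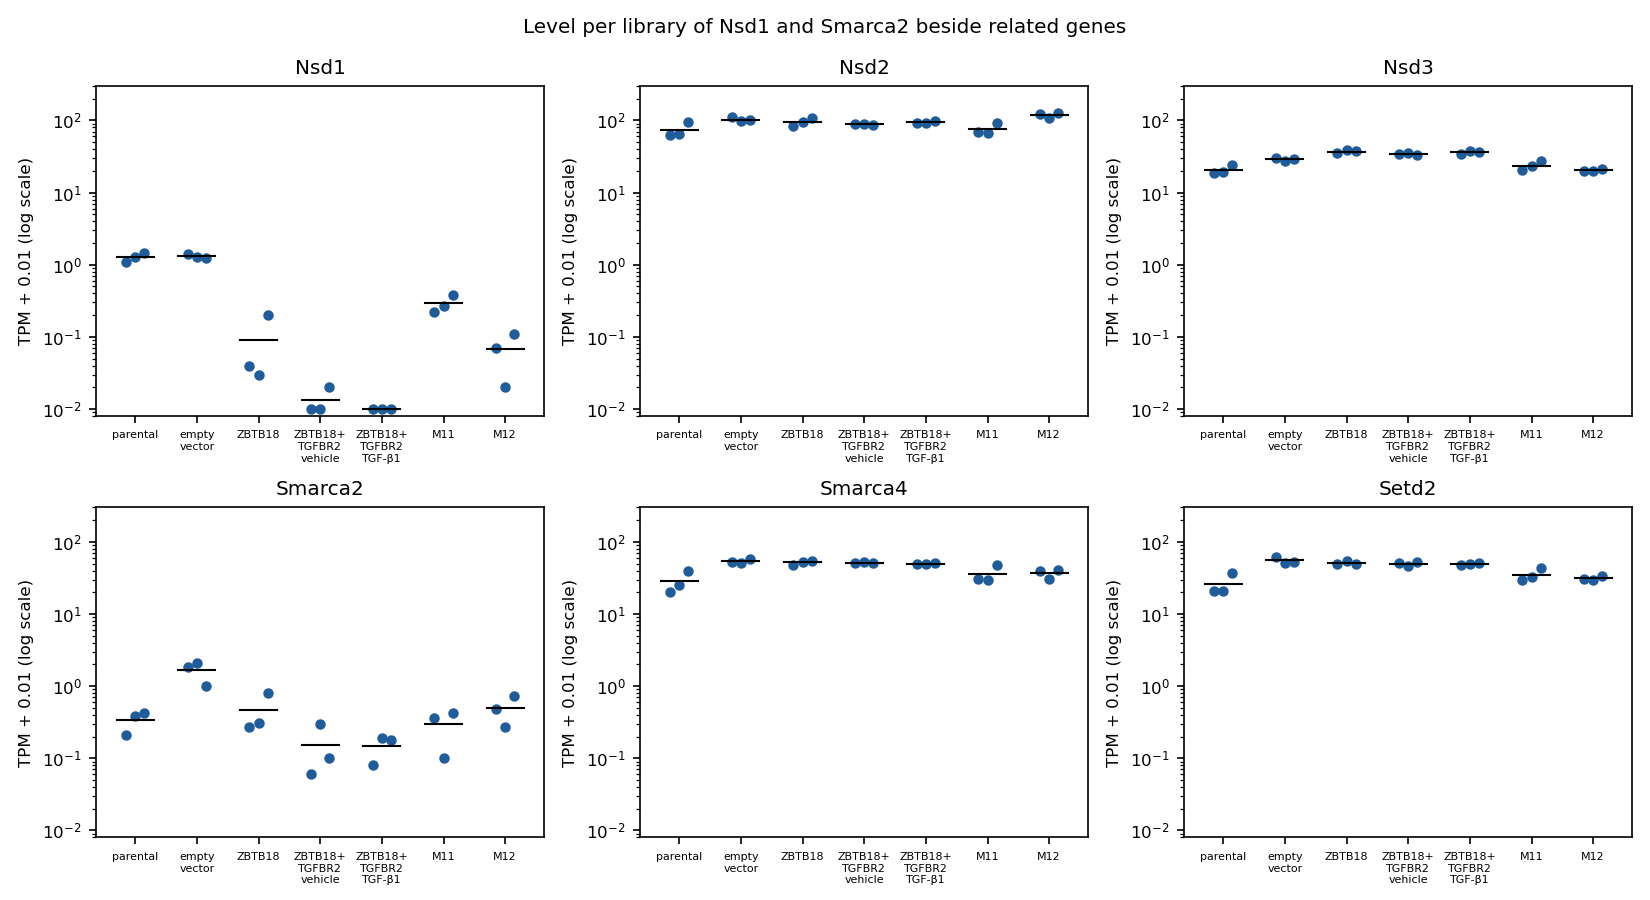
TPM + 0.01 on a log scale in each library (points) for Nsd1 and Smarca2 beside their paralogues and Setd2, with the group mean as a bar, for 7 groups of 3 libraries. Nsd1 lies under 0.4 TPM in the ZBTB18, receptor, M11 and M12 libraries and above 1 TPM in the references. Nsd2, Nsd3, Smarca4 and Setd2 vary far less than Nsd1 on this log scale. Smarca4 and Setd2 are still lower in the parental line than with empty vector.

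The calls for Nsd2 and Nsd3 were smaller than those for Nsd1, and in both directions. Nsd3 was higher with ZBTB18 than with empty vector (109 ± 1.3 against 91.5 ± 2 CPM, SD, n = 3, log2 fold change 0.26) and the 9 ZBTB18 and receptor libraries lay above all 6 reference libraries; without the filter on low counts the call against empty vector was lost. In M12, Nsd3 was lower than in the parental line (71.9 against 87 CPM, −0.27) and Nsd2 higher (346 ± 42 against 260 ± 27 CPM, 0.41). Nsd2 was lower in the receptor line with vehicle than with empty vector (251 ± 5.4 against 305 ± 11 CPM, −0.28, lost without empty vector replicate 1). Setd2, the enzyme that trimethylates H3K36, was higher in each line with a construct than in the parental line: the parental line held 119 ± 27 CPM, against 227, 198, 201 and 203 CPM in the empty vector, ZBTB18, vehicle and TGF-β1 groups (empty vector minus parental 0.93, SE 0.12, adjusted p = 2.26e-06; ZBTB18 minus empty vector −0.20, adjusted p = 0.23).

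None of the tested genes nearest to Nsd1 on the chromosome fell as far in these comparisons. The 4 tested genes on each side of Nsd1, from Unc5a to Lman2, had log2 fold changes from −0.49 to 0.36 between ZBTB18 and empty vector, from −0.43 to 0.38 between M11 and the parental line and from −0.92 to 0.73 between M12 and the parental line. Over the 10 tested genes on each side the range was wider, from −1.39 to 2.83 between ZBTB18 and empty vector (median −0.38, 10 called lower and 3 higher), from −0.79 to 0.64 in M11 (median 0.10) and from −1.37 to 4.20 in M12 (median 0.01). Chromosome 13 as a whole leaned lower in the ZBTB18 line, with a median of −0.29 over 603 tested genes and 19 calls up against 239 down. In M11 and M12 the chromosome 13 medians were −0.03 and −0.04.

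**Figure D3:**
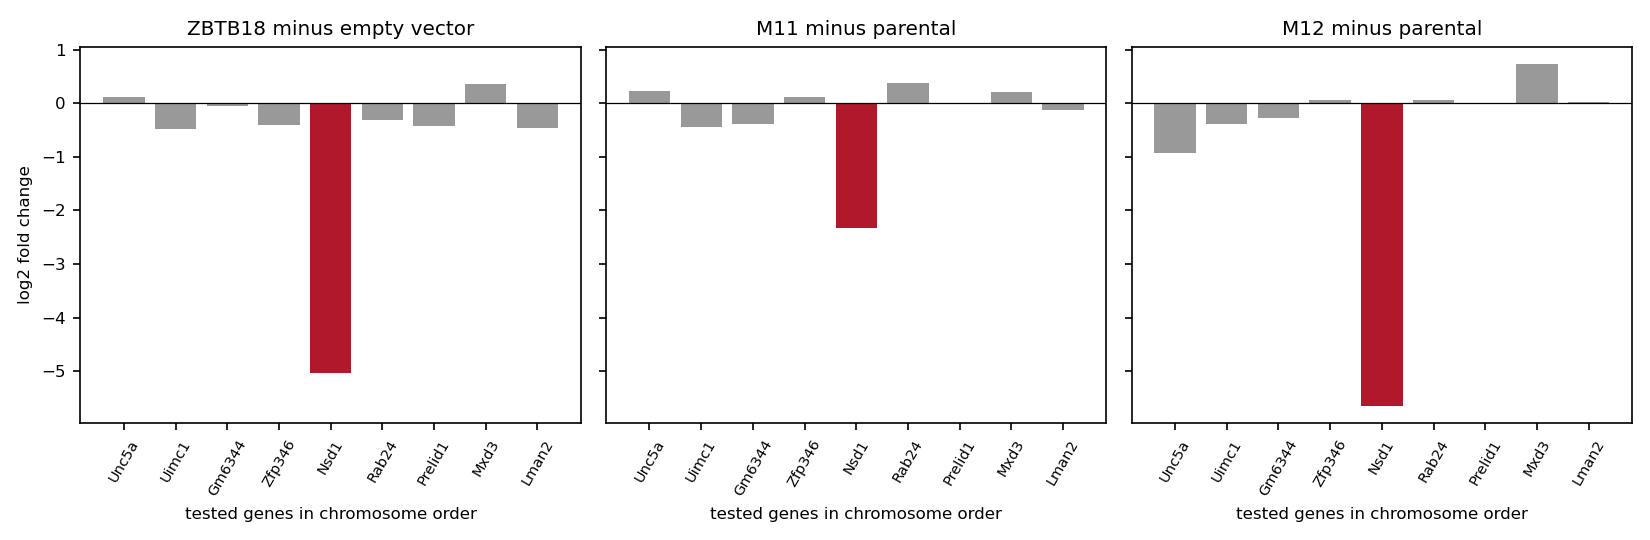
Log2 fold change of Nsd1 (red) and of the 4 nearest tested genes on each side (grey), in chromosome order, for ZBTB18 minus empty vector, M11 minus parental and M12 minus parental. Nsd1 stands at −5.03, −2.33 and −5.64 while each of the 8 neighbours plotted lies between −0.92 and 0.73.

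Polycomb repressive complex 2 (PRC2), which methylates H3K27, showed its largest shifts in the receptor line and in M12. Ezh2, the main catalytic subunit, stood at 170 ± 6.6 CPM with ZBTB18, the same range as with empty vector (174 ± 6.6), and at 125 ± 12 CPM in the receptor line with vehicle (vehicle minus ZBTB18 −0.43, SE 0.11, adjusted p = 0.00388). M12 held 91.2, 63 and 93.9 CPM of Ezh2 against 130, 137 and 145 in the parental line (−0.73, SE 0.11, adjusted p = 1.41e-05). Ezh1, the less active paralogue, went the other way in the receptor line: 65, 71.6 and 63.7 CPM with vehicle against 32.2, 37.4 and 38.2 CPM with empty vector (0.90, SE 0.16, adjusted p = 0.000101). In TPM, Ezh1 made up 9.31% of the summed Ezh1 and Ezh2 with empty vector, 13.0% with ZBTB18 and 20.2% in the receptor line with vehicle. The smaller rise of Ezh1 between empty vector and ZBTB18 (0.49, adjusted p = 0.0269) was lost without empty vector replicate 1 or 2 and without ZBTB18 replicate 2 or 3. Eed, which binds the methyl mark and activates the enzyme, was lower than in the parental line with ZBTB18 (−0.32), in M11 (−0.23, lost without the filter on low counts) and in M12 (54.6 ± 2.2 against 75.3 ± 3.5 CPM, −0.46). With empty vector Eed was lower than in the parental line too (−0.18, lost without the filter on low counts). Between ZBTB18 and empty vector it was not called (−0.14). Suz12, the scaffold subunit, was higher in each line with a construct, from 124 ± 10 CPM in the parental line to 160 with empty vector, 169 with ZBTB18 and 200 in the receptor line with vehicle (vehicle minus empty vector 0.32, adjusted p = 0.00508). M12 replicate 2 stood apart within its group, with the lowest Ezh2 and the highest Ezh1 (57.1 CPM against 31 and 43.1).

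Of the 5 H3K9 methyltransferase genes, Ehmt2 was the one called with ZBTB18 against both references. Its product, G9a, dimethylates H3K9 together with that of Ehmt1. Ehmt2 stood at 224, 223 and 224 CPM with ZBTB18, 217, 266 and 244 CPM in the receptor line with vehicle, and 163 to 181 CPM in the 6 reference libraries (ZBTB18 minus empty vector 0.36, SE 0.08, adjusted p = 0.0023; minus parental 0.38). All 15 libraries of the ZBTB18, receptor and metastasis groups lay above those 6, though M12 did so by a narrow margin (183 ± 2 CPM) and its difference from the parental line was not called (0.10, adjusted p = 0.35). Suv39h1, which trimethylates H3K9 in constitutive heterochromatin, stood at 69 ± 1.7 CPM with ZBTB18, 65 ± 1.3 with empty vector, 55 ± 4.8 in the parental line and 52.9 ± 2.6 in the receptor line with vehicle (vehicle minus ZBTB18 −0.38, SE 0.08, adjusted p = 0.000423). Its ZBTB18 libraries lay above those of both references, with a difference called against the parental line (0.33) and not against empty vector (0.09, adjusted p = 0.45). Empty vector was itself called higher than the parental line for Suv39h1 (0.24, lost without the filter on low counts). Setdb1 was called only as higher in M11 (108 against 92.6 CPM in the parental line, 0.23, lost without parental replicate 1 or 2, and 89.2 in M12). Ehmt1 was called only between ZBTB18 and the parental line (0.21, adjusted p = 0.0332, lost in 7 of the alternatives), and Suv39h2 in none of the 9 comparisons.

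Of the 5 methyltransferase genes of H3K4 and H3K79, 3 were called higher and 0 lower in M11 than in the parental line. Of all genes tested, 20.8% were higher and 20% lower there. In the ZBTB18 line 2 were higher and 1 lower than in the parental line, where 29.9% and 31.8% of all genes were. With empty vector 2 were higher and 0 lower than in the parental line, where 28.9% and 29% of all genes were. Kmt2d, which with Kmt2c marks enhancers, stood at 149, 121 and 89.2 CPM in M11 against 57.4, 64.8 and 70.1 in the parental line (0.90, SE 0.17, adjusted p = 0.000292) and 72 ± 12 in M12. Kmt2a, the MLL gene, stood at 151 ± 27 CPM in M11, 101 ± 11 in M12 and 82.2 ± 8.5 in the parental line (M11 minus parental 0.88, SE 0.14, adjusted p = 2.5e-05). It was also higher than in the parental line with empty vector (116 ± 20 CPM, 0.50) and with ZBTB18 (133 ± 16 CPM, 0.69), and its level in the receptor line with vehicle was 140 ± 14 CPM. Both genes were highest in M11 replicate 1, the library with the largest mitochondrial share (3.42%); the calls held without it. Kmt2b was higher in M11 by 0.35 (lost without parental replicate 1), and with empty vector by 0.27 (lost without parental replicate 1 or 2 and without empty vector replicate 1 or 3). Kmt2c was not called in M11 or M12, and was higher with ZBTB18 than in the parental line (0.38, lost without parental replicate 2 or ZBTB18 replicate 2). Dot1l, the H3K79 methyltransferase, was lowest in the ZBTB18 line (76 ± 4.6 CPM against 95.6 ± 6.6 with empty vector, −0.33, adjusted p = 0.0243), and that call was lost when empty vector replicate 2 or 3, or ZBTB18 replicate 1 or 2, was left out.

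Kdm5b, which removes H3K4 trimethylation and is known as a gene raised in breast tumours, rose most. It stood at 14.6, 14.8 and 18.3 CPM in the parental libraries and 18.4, 15.2 and 19.2 CPM with empty vector. With ZBTB18 it stood at 62.4, 64 and 71.4 CPM, in the receptor line at 102, 93.4 and 108 CPM with vehicle and 106, 104 and 113 CPM with TGF-β1. M11 held 26.8, 31.8 and 33.9 CPM and M12 54.9, 43.1 and 46.3 CPM. All 15 of these libraries lay above all 6 reference libraries. The rise over empty vector was 1.90 with ZBTB18 (SE 0.12, adjusted p = 7.99e-11) and 2.52 in the receptor line with vehicle (SE 0.12, adjusted p = 2.55e-13), and the receptor line stood above the ZBTB18 line by 0.62 (adjusted p = 0.000138). TGF-β1 added 0.09 (adjusted p = 0.84). Over the parental line the rise was 0.95 in M11 (adjusted p = 1.17e-06) and 1.60 in M12 (adjusted p = 3.82e-10), and M11 stood below M12 by −0.64. All of these calls held in every alternative run.

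Kdm5a, the paralogue of Kdm5b, went slightly the other way. It fell from 157 ± 14 CPM with empty vector to 122 ± 7.3 with ZBTB18 (−0.36, SE 0.08, adjusted p = 0.00112), while the parental line held 131 ± 6. On the TPM scale Kdm5b made up 10.8% of the summed Kdm5a and Kdm5b in the parental line, 8.42% with empty vector, 33.8% with ZBTB18, 38.7% in the receptor line with vehicle, 18.5% in M11 and 27.7% in M12. Chromosome 1, where Kdm5b lies (134560171 to 134635285), leaned higher in the metastasis lines, with medians of 0.40 in M11 and 0.39 in M12 over 913 tested genes, and by 0.14 in the ZBTB18 line against empty vector; the part of that lean was not tested. The 20 tested genes around Kdm5b had a median of 0.01 between ZBTB18 and empty vector and of 0.71 between M12 and the parental line.

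**Figure D4:**
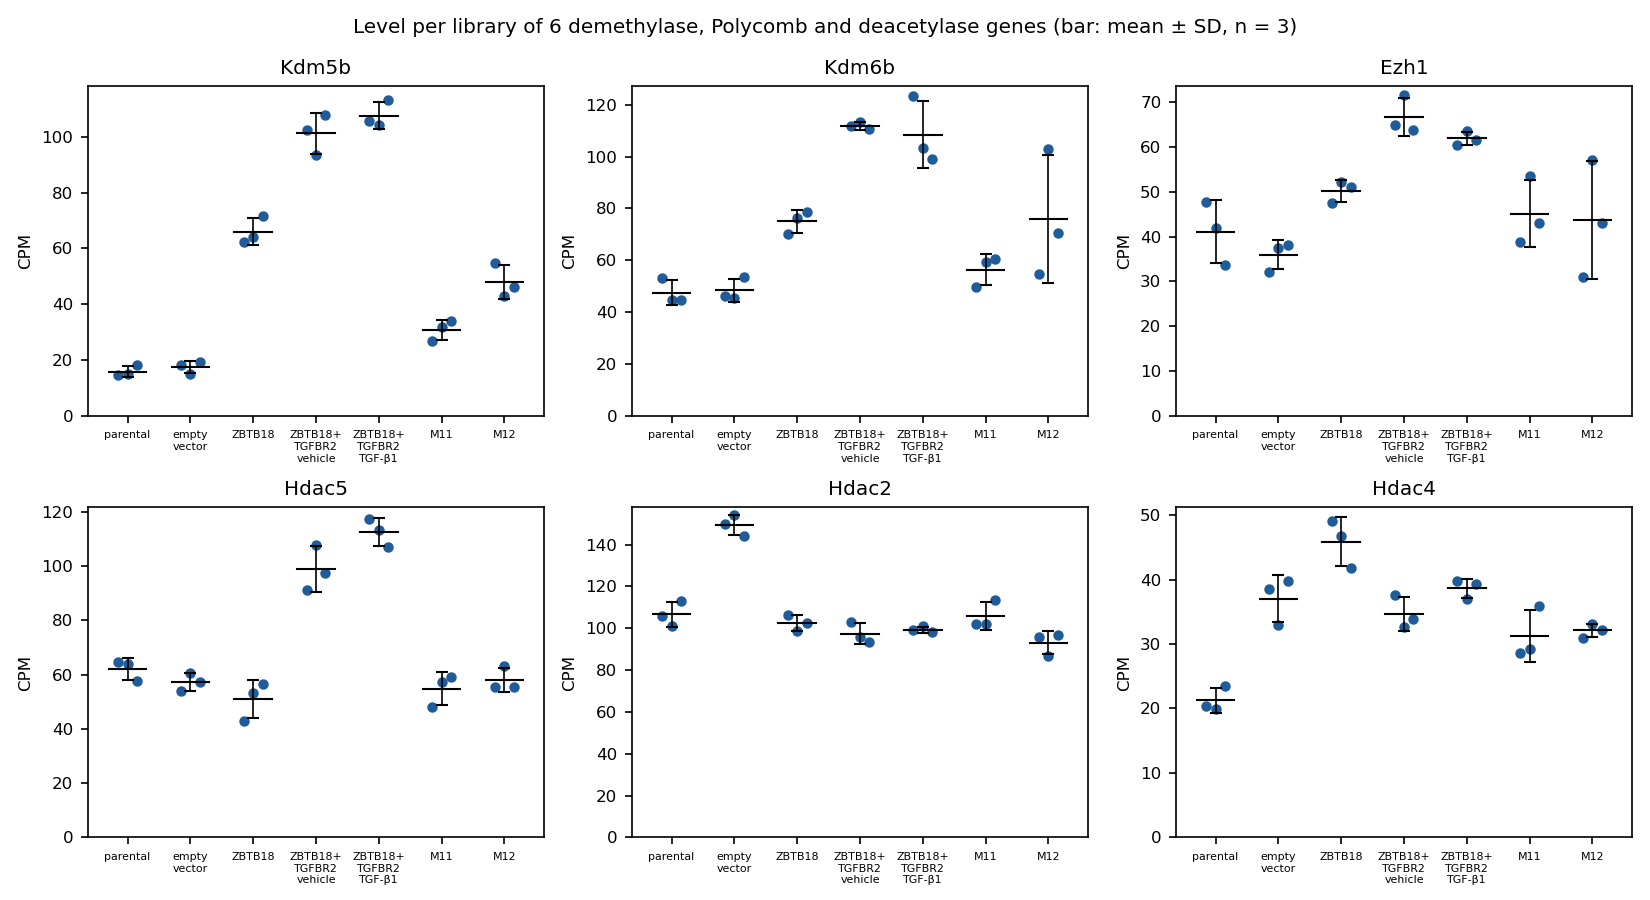
CPM in each library (points) of Kdm5b, Kdm6b, Ezh1, Hdac5, Hdac2 and Hdac4 in the 7 groups, with the mean and SD of 3 libraries as bars. Kdm5b and Kdm6b step up from the references to the ZBTB18 line and again to the receptor groups, Hdac5 only in the receptor groups, and Hdac2 is high only with empty vector.

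Kdm6b, an eraser of H3K27 trimethylation, rose alongside. It stood at 44.6 to 53.5 CPM in the 6 reference libraries, 70, 76.2 and 78.8 CPM with ZBTB18 and 112, 113 and 111 CPM in the receptor line with vehicle (ZBTB18 minus empty vector 0.63, SE 0.15, adjusted p = 0.00373; vehicle minus ZBTB18 0.58, adjusted p = 0.00512). In M12 it stood at 54.6, 103 and 70.4 CPM, a wide spread set by replicate 2, and was higher than in the parental line (0.68, adjusted p = 0.00103). Kdm4a, which demethylates H3K9 and H3K36, climbed in small steps from 84.8 ± 4.7 CPM (parental) and 92.3 ± 6.6 (empty vector) to 108 ± 2.4 with ZBTB18, 124 ± 3 with vehicle and 136 ± 4.6 with TGF-β1; vehicle minus empty vector was 0.43 (adjusted p = 8.77e-05), while the smaller step from empty vector to ZBTB18 (0.23) was lost without empty vector replicate 1 or 2 and without ZBTB18 replicate 1 or 2. Kdm2b, a demethylase that recruits a Polycomb complex to CpG islands, was lower in the receptor line with vehicle than with empty vector (38.1 ± 1.4 against 55.6 ± 0.71 CPM, −0.55) and lower in M11 than in the parental line (36.1 ± 7.4 against 53.5 ± 8.7 CPM, −0.57); the chromosome 5 median was −0.28 in M11.

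Kdm1a (LSD1), which removes mono- and dimethylation of H3K4, was the one gene of the set called with TGF-β1 in the fit over all 21 libraries. It stood at 129, 146 and 139 CPM with vehicle and 172, 193 and 179 CPM with TGF-β1, without overlap (0.39, SE 0.08, adjusted p = 0.0149). The call was lost without vehicle replicate 1, TGF-β1 replicate 2 or TGF-β1 replicate 3. It had also been lower with ZBTB18 than with empty vector (122 ± 4.6 against 150 ± 0.83 CPM, −0.29, lost without ZBTB18 replicate 2), but its difference from the parental line was not called (0.04, adjusted p = 0.71).

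Among the class I deacetylases, HDAC1, HDAC2 and HDAC3 are catalytic subunits of the NuRD, Sin3, CoREST or NCoR repressor complexes. The class I genes split by reference. Hdac2 stood at 150, 154 and 144 CPM with empty vector and 86.9 to 113 CPM in the 18 other libraries, so it fell with ZBTB18 against empty vector (−0.54, SE 0.07, adjusted p = 4.17e-06) and not against the parental line (−0.06, adjusted p = 0.5). Hdac1, its paralogue, was lower in the ZBTB18 and receptor libraries than in all 6 reference libraries: 139 ± 5.2 CPM with ZBTB18 and 121 ± 5.4 in the receptor line with vehicle against 163 ± 2.4 with empty vector. The call for ZBTB18 against empty vector (−0.23, adjusted p = 0.0348) was lost when any 1 of those 6 libraries was left out, while that of the receptor line held (−0.43, adjusted p = 0.000158). Hdac3 was lowest in the parental line (80.6 ± 3.9 CPM) and higher in each other line, up to 132 ± 4.3 CPM in M12 (0.71, SE 0.07, adjusted p = 1.47e-08). Hdac8 stood at 13.9 and 14.4 CPM in the empty vector and ZBTB18 lines, 10.5 in the receptor line with vehicle and 9.45 in the parental line (empty vector minus parental 0.56, vehicle minus ZBTB18 −0.46).

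Among the class II deacetylases, which shuttle between cytoplasm and nucleus, Hdac5 marked the receptor line. It stood at 91.2, 108 and 97.5 CPM with vehicle and 117, 113 and 107 CPM with TGF-β1, and between 43 and 64.8 CPM in the 9 parental, empty vector and ZBTB18 libraries (vehicle minus ZBTB18 0.96, SE 0.10, adjusted p = 1.97e-07; vehicle minus empty vector 0.79). Hdac4 had its highest level in the ZBTB18 line (45.9 ± 3.8 CPM), above empty vector at 37 ± 3.6 (0.31, lost without empty vector replicate 2 and without ZBTB18 replicate 1 or 2) and the parental line at 21.3 ± 1.9 CPM (1.11, SE 0.10, adjusted p = 9.18e-09). Part of that rise stood between the references, since empty vector lay above the parental line by 0.80. Hdac7 ran opposite, lowest in the ZBTB18 line (85 ± 5 CPM) and M12 (79.5 ± 9.9), against 103 ± 8.1 with empty vector and 121 ± 9.8 CPM in the parental line (ZBTB18 minus parental −0.51, M12 minus parental −0.60). Hdac6, a mainly cytoplasmic tubulin deacetylase, was higher than in the parental line in M11 (22.5 against 15.5 CPM, 0.54), M12 (21.5 CPM, 0.47), the empty vector line (0.37) and the ZBTB18 line (20.5 CPM, 0.40). In the receptor line with vehicle it was lower than with ZBTB18 (16.2 CPM, −0.34, lost without the filter on low counts).

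Smarca2, one of the interchangeable ATPases of the SWI/SNF complex, was at the edge of detection, and its fall with ZBTB18 depended on the reference. It stood at 1.39, 1.8 and 0.951 CPM with empty vector and at 0.17, 0.479 and 0.426 CPM in the parental line. With ZBTB18 it stood at 0.174, 0.228 and 0.365 CPM, in M11 at 0.401, 0.125 and 0.448 CPM, and in M12 at 0.297, 0.172 and 0.485 CPM. The receptor groups held 12 reads with vehicle and 15 with TGF-β1 in all. Empty vector lay above all other groups without overlap, whereas the ZBTB18, M11 and M12 ranges overlapped that of the parental line. ZBTB18 minus empty vector was −2.41 (SE 0.43, adjusted p = 0.000192), empty vector minus parental 1.92 (adjusted p = 0.000678) and ZBTB18 minus parental −0.49 (adjusted p = 0.38). The receptor line with vehicle was lower than the ZBTB18 line by −1.92 (adjusted p = 0.0119), a call lost without ZBTB18 replicate 3 or vehicle replicate 1.

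Smarca4, the alternative ATPase, was the abundant one throughout. It held 97.0 to 99.7% of the summed TPM of Smarca2 and Smarca4 in all groups, and Smarca2 2.99 ± 1.2% with empty vector, 1.15 ± 0.25% in the parental line and 0.841 ± 0.5% with ZBTB18 (SD, n = 3). The log2 ratio of Smarca2 to Smarca4 (0.1 TPM added) was lower with ZBTB18 than with empty vector by −1.66 (exact permutation p = 0.1, the smallest possible) and differed from the parental line by −0.65 (exact p = 0.3). Smarca4 itself had 135 ± 30 CPM in the parental line, 211 ± 13 with empty vector and 195 ± 6 with ZBTB18 (empty vector minus parental 0.64, ZBTB18 minus empty vector −0.11, adjusted p = 0.6). The empty vector line thus stood apart from all other groups for Smarca2, as it did for Hdac2.

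Of the other remodelling subunits, Arid1a and Arid1b, DNA-binding subunits that define a form of SWI/SNF, were higher with empty vector than in the parental line (0.53 and 0.69) and not called between ZBTB18 and empty vector. Chd4, the NuRD ATPase and an abundant gene of the set, showed the same pattern: 267 ± 57 CPM in the parental line, 451 ± 25 with empty vector and 445 ± 15 with ZBTB18 (empty vector minus parental 0.76, SE 0.14, adjusted p = 0.000121). Smarcb1, a core SWI/SNF subunit and tumour suppressor, fell with ZBTB18 against empty vector (94 ± 6.7 against 118 ± 0.58 CPM, −0.32, adjusted p = 0.00593), while its difference from the parental line (105 ± 6.2 CPM) was not called (−0.16, adjusted p = 0.11). It was lower again in the receptor line with vehicle (72.7 ± 2.9 CPM, −0.37 against ZBTB18 and −0.69 against empty vector, adjusted p = 8.44e-07 for the latter). Rest, a repressor of neuronal genes that recruits deacetylases and demethylases, stood at 55.1 ± 1.5 CPM in M11, 64.9 ± 4.2 in the parental line and 77.8 ± 9 in M12. M11 was lower than M12 by −0.50 (adjusted p = 8.17e-05), while the differences of M11 (−0.24) and M12 (0.26) from the parental line were each lost when 1 library was left out: for M11 parental replicate 1 or 3 or M11 replicate 1 or 3, and for M12 parental replicate 2 or M12 replicate 2.

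**Figure D5:**
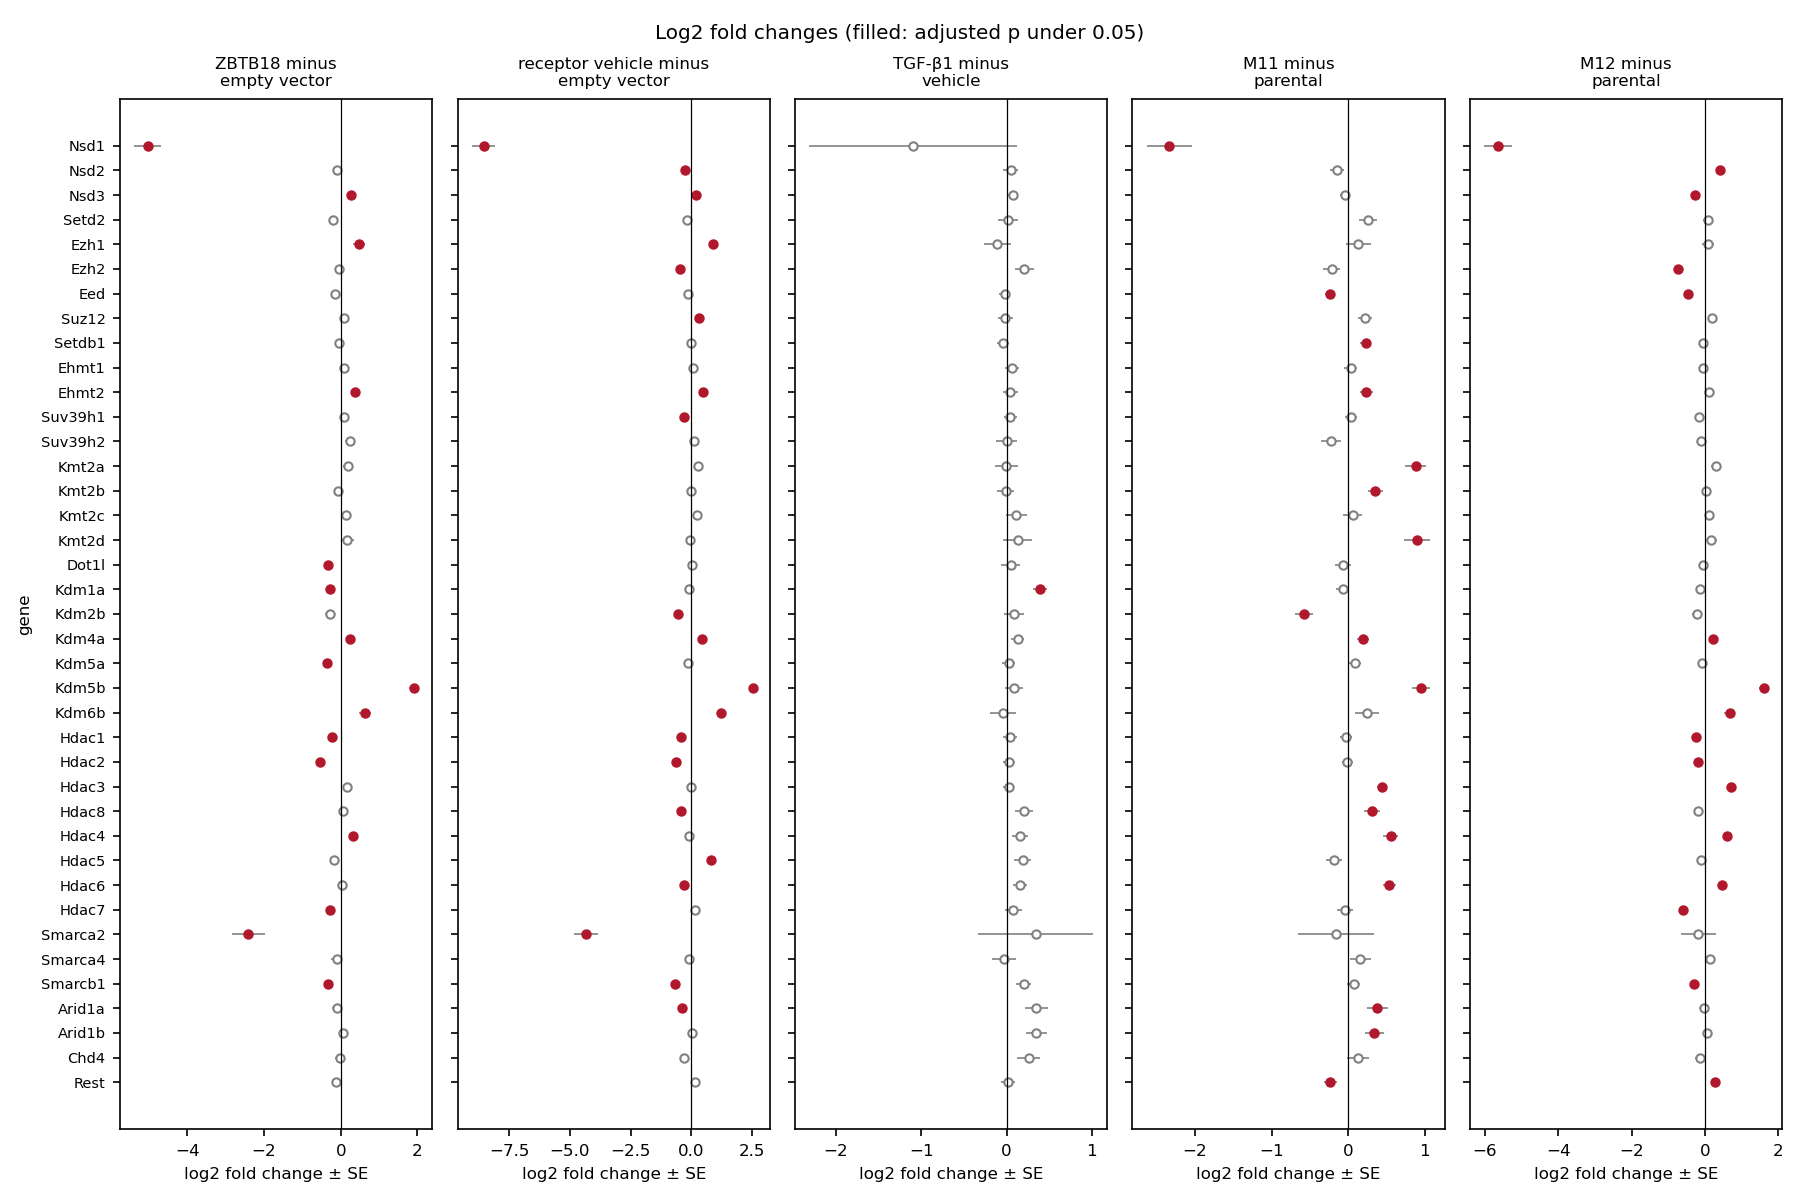
Log2 fold change with its SE for the 39 tested genes in 5 comparisons, with a separate scale for each panel; filled points have an adjusted p under 0.05. Nsd1 is the lowest point in the panels for ZBTB18, the receptor line, M11 and M12, Kdm5b the highest, and in the TGF-β1 panel the one filled point is Kdm1a.

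Several moderate changes ran in the direction in which their whole chromosome leaned, some near its median and others well past it. Other changes ran against the lean. Dot1l, Hdac2 and Smarcb1 lie on chromosome 10, whose 720 tested genes had a median of −0.27 between ZBTB18 and empty vector, with 39 calls up and 265 down; their own values were −0.33, −0.54 and −0.32. Against the lean in that comparison, Smarca2 (−2.41) fell on chromosome 19, which had a median of 0.28 and 221 calls up against 26 down. Hdac7 (−0.28) fell on chromosome 15, with a median of 0.12. In M12 against the parental line, Nsd3 (−0.27) and Ezh2 (−0.73) lie on chromosomes 8 and 6, with medians of −0.32 and −0.30, and Hdac4 (0.59) on chromosome 1, with 0.39. In M11 against the parental line, Rest (−0.24) and Kdm2b (−0.57) lie on chromosome 5, with −0.28. Kdm6b, Ezh1, Suz12 and Hdac5 all lie on chromosome 11, whose median was 0.01 between the receptor line with vehicle and the ZBTB18 line, against their 0.58, 0.41, 0.25 and 0.96. The part of these leans in the results was not tested.

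Few of the genes separated whole sets of libraries. The 9 ZBTB18 and receptor libraries lay above all 6 reference libraries for Nsd3, Ehmt2, Kdm4a, Kdm5b and Kdm6b, and below them for Nsd1 and Hdac1. That is 5 and 2 of 39 genes, where 7.41% and 7.53% of all genes tested lay so. With the 6 metastasis libraries added to the 9, Ehmt2 and Kdm5b remained above and Nsd1 below (1.17% and 1.61% of all genes). The 6 receptor libraries lay above the 9 parental, empty vector and ZBTB18 libraries for Ezh1, Suz12, Kdm4a, Kdm5b, Kdm6b and Hdac5 and below them for Nsd1, Kdm2b, Hdac1 and Smarca2 (9.25% and 8.18% of all genes). These groupings were chosen after values had been seen and carry no test.

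Promoter sequences were set beside these changes because ZBTB18 is known to bind the E-box-like motif CAGATGT. It was searched on both strands, where its reverse complement reads ACATCTG. Of the 40 genes, 31 had a promoter in the RefSeq table (build GRCm38.p6), read over the 250 bases before the start. The motif occurred in 1 of them, a Suv39h1 promoter, and in 3.71% of 32851 promoters of all genes. Its core CAGATG occurred in 6, those of Hdac5, Hdac8, Hdac9, Kmt2a, Kmt2d and Suv39h1, and in 14.4% of all promoters. The 2 searches overlap, since the longer motif holds the core. Genes of the set were counted once if any of their promoters matched, while the percentages count each promoter. Only 24 of the 31 genes had 1 promoter entry, so these counts and percentages are not on the same scale. The 4 sequences shown run 5′ to 3′ along the gene, in lower case with motif matches in capitals, up to the annotated start of the gene: Kdm5b (chr1:134559928-134560170, plus strand) and Smarca2 (chr19:26604910-26605049, plus strand), which moved most among the genes with an entry and hold no match, Hdac5 (chr11:102230173-102230422, minus strand), which rose in the receptor line, and Suv39h1 (chrX:8074761-8075010, minus strand), which fell there.
Kdm5b: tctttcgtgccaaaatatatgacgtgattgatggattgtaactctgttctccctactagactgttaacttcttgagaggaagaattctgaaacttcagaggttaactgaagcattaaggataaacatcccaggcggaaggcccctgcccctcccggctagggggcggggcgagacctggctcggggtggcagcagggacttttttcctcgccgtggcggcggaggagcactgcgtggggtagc
Smarca2: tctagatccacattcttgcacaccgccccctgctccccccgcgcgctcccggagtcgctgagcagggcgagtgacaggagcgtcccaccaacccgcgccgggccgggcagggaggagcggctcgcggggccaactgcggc
Hdac5: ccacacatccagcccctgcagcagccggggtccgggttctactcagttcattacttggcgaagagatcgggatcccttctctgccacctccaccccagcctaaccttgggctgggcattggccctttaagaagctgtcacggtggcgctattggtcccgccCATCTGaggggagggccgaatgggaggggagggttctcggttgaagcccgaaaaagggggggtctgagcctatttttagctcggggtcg
Suv39h1: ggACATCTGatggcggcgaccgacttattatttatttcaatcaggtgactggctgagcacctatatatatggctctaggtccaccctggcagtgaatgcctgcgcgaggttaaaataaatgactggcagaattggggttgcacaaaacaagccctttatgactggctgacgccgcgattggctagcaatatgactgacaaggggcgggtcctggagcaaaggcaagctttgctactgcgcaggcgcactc
The absence of these letters from the window of Kdm5b and Smarca2 says nothing on whether the factor binds elsewhere, and a match is a description of the letters only.

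Other genes of the same machinery, 160 in 9 lists of which 156 were tested, were read the same way. In the comparison of empty vector with the parental line, 85 of the 156 rose and 31 fell (74.4%, where 58% of all genes were called). Of all genes, 28.9% rose and 29% fell. The most one-sided list was the other remodelling ATPases and partners, where 17 of 20 rose and 0 fell (median 0.50). Of 21 other SWI/SNF subunits 12 rose and 4 fell. Polycomb partners were the only list with more falling than rising, 8 up and 10 down of 28 (median −0.03). Between ZBTB18 and empty vector, 26 of the 156 rose and 20 fell (median 0.02), where 14% and 14.5% of all genes did so. Polycomb partners had 8 higher and 3 lower of 28 there, and no gene of these lists changed by a fold of 2 at 5 CPM or more without overlap. In the receptor line with vehicle against empty vector, 37 of the 156 rose and 43 fell (51.3%, where 51.5% of all genes were called), among them Hdac11, the class IV deacetylase (5.09 to 11.9 CPM, 1.24), the PRC2 accessory gene Phf1 (14.2 to 30.2 CPM, 1.09) and the Polycomb reader Cbx7 (20.8 to 44.0 CPM, 1.08), with the histone hydroxylase Riox1 lower (35.8 to 17.1 CPM, −1.07). Cbx7 had itself been lower with empty vector than in the parental line (47.0 CPM, −1.18), and the receptor line with vehicle lay near the parental level.

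In the ZBTB18 line against the parental line, Cbx2, another Polycomb reader, rose from 1.54 to 5.45 CPM (1.83) and Sap130, a Sin3 complex subunit, from 51.8 to 116 CPM (1.17), while the mitochondrial sirtuin Sirt4 fell from 9.50 to 3.37 CPM (−1.50). Cbx7 fell from 47.0 to 22.2 CPM (−1.08). With empty vector Sirt4 stood at 3.49 CPM (−1.46 against the parental line) and Cbx7 at 20.8 CPM. Pcgf1, a subunit of a Polycomb complex, stood at 6.45 CPM with empty vector (−1.03) and 7.08 CPM with ZBTB18 (−0.90) against 13.2 CPM in the parental line. In M11 the Sin3 subunit Sap30 stood at 15.4 CPM against 37.0 in the parental line (−1.27). In M12, Rybp, a subunit of variant Polycomb complexes, stood at 31.4 CPM against 69.5 in the parental line (−1.15) and 65.9 in M11, while Sap130 (1.01) and the SWI/SNF subunit Ss18l1 (1.06) were higher. TGF-β1 changed 2 of the 156, both upward (1.28%, where 1.91% of all genes were called).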

How the data were processed

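RNA was sequenced from 21 libraries, grouped and numbered by their titles, with 0 columns left unmapped. The authors deposited expected counts per gene and TPM values from RSEM: the counts carry no normalisation, and TPM adjusts each gene for its effective length and every library to the same total. The submitters' processing notes name Trim Galore, STAR 2.7.1a, GATK 4.1.2.0, RSEM and build mm10; the annotation release is not given in the sources used here. RSEM shares reads between similar genes, and 1.28% of the counts were not whole, so counts were rounded. The 92 spike-in entries held 0 reads and were left out, as were the FPKM values. Positions came from GENCODE vM21, which held 99.14% of the gene identifiers.

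Counts went into edgeR 4.0.16 (R 4.3.3), scaled by TMM and filtered by group with its default. A model of 1 mean per group over all 21 libraries was tested with the robust quasi-likelihood F-test, two-sided, with Benjamini-Hochberg adjustment over 15432 genes and a threshold of 0.05. CPM was computed from the deposited counts after TMM, and the SE is the absolute log2 fold change divided by the square root of F. The fit was tested on simulated data. No 2 replicates agreed within sampling noise, and intervals on reads cover counting error only. Replicate numbers were read as pairing libraries where all 3 same-numbered correlations of deviations from the group means exceeded 0.1. This held for vehicle in the receptor line and empty vector (r = 0.177 to 0.302), TGF-β1 and vehicle (0.456 to 0.688), and M11 and M12 (0.266 to 0.587). The main fit used no pairing in any comparison, and a replicate block entered only as an alternative. Alternatives were DESeq2 1.42.0, its size factors in edgeR, no filter, at least 1 CPM in 3 libraries, a fit of the 6 libraries compared, a replicate block and leaving out each library.

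The 40 genes, the lists of related genes and the tests were chosen with earlier results of these data known. From the 9 lists of related genes, up to 4 genes per comparison were named by rule, with an adjusted p under the threshold, a fold of at least 2, at least 5 CPM in the higher group and no overlap between libraries; a few were named again in other comparisons for their level there.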

Additional observations from a re-analysis of the deposited data

Results flagged for a closer look

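For 5 genes, M11 and M12 each differed from the parental line and the difference between the 2 metastasis lines, tested directly with edgeR's quasi-likelihood test, also passed the threshold. The share of all genes passing all 3 was not computed. Taken 1 at a time, the 3 comparisons called 40.7% (M11), 50.1% (M12) and 35.5% (M11 against M12) of all genes. Nsd1 stood 3.31 higher on the log2 scale in M11 than in M12, although it was lower than in the parental line in both. Eed stood 0.23 higher in M11, where its fall from the parental line was smaller, but both that difference and its fall in M11 were lost without the filter on low counts. Kdm5b differed by −0.64 and Hdac3 by −0.27 (M11 minus M12), both having risen further in M12. The Hdac3 difference was lost with the 6 libraries of the comparison alone. Rest differed by −0.50 and lay on opposite sides of the parental level, but its calls against the parental line were lost in several alternatives. M11 and M12 share the parental libraries as their reference, so their differences from it are not independent.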

How the results depend on the processing

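DESeq2, its size factors in edgeR and the replicate block each left all 154 calls of single genes past the threshold; with the block the counts of genes of the set called were 17 for ZBTB18 against empty vector, 20 for vehicle against ZBTB18, 21 for vehicle against empty vector and 22 for M11 against M12, and it changed no count by more than 1.5 times. In 6 of the 9 comparisons, all but vehicle against empty vector, TGF-β1 against vehicle and M11 against M12, the replicate numbers were not shown to pair samples (same-numbered r from −0.312 to 0.580). Without the filter on low counts 25 of these calls were lost, with a filter of 1 CPM in 3 libraries 3, and with the 6 libraries of a comparison alone 31; no call changed direction. The 4 Smarca2 calls were not tested under the 1 CPM filter, nor was 1 call with 6 libraries alone. For TGF-β1 against vehicle, 295 genes were called, against 633 without the filter, 1349 with 6 libraries alone and 594 with DESeq2, and 71 to 183 with any 1 of the 6 libraries left out; genes of the set were 1, 3 without the filter, 4 with 6 libraries alone and 0 to 1 with a library left out. With 6 libraries alone, calls were 4015, 5113 and 3497 genes for M11 and M12 against parental and M11 against M12, and 8, 10 and 11 genes of the set; without the filter M11 against parental gave 11. Leaving out a library gave 9 to 13 genes of the set for ZBTB18 against empty vector and 10 to 19 for M11 against parental. All genes called were then 3328 to 3764 and 5067 to 6947. The Nsd1 ratio to its paralogues between vehicle and ZBTB18 was 0.0035 with 1 TPM added, against −0.57. The Smarca2 ratio ranged from −0.206 to 0.168 for M12 against parental and from −0.172 to 0.506 for TGF-β1 against vehicle with a library left out. Smarca2 fold changes that were not called spanned 0 with a library left out: −0.12 to 0.84 for TGF-β1 against vehicle, −0.49 to 0.21 for M11 (0.12 without parental replicate 2), −0.68 to 0.13 for M12 (0.08 without parental replicate 2) and −0.30 to 0.51 for M11 against M12 (also −0.02, −0.20 and −0.22). The cause of these shifts was not tested. Depth limits Nsd1 in the receptor groups, Smarca2 in all groups and Hdac9, which was not tested.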
